A study of Rattus norvegicus with 6 samples.

Results

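Rab GTPases and endosomal sorting genes were taken from a 3' end RNA sequencing table of rat fibroblasts by gene symbol: Rab followed by a number and at most 1 letter from a to d, and any symbol starting with Vps, Chmp or Bloc1s and a number. The rule found 97 of the 17143 rows of the table. These were 54 Rab genes, 29 Vps genes, 9 Chmp genes and 5 Bloc1s genes. The cells were Rat-1, an established rat fibroblast line, harvested 4 h after 25000 cells per well had been placed on extracellular matrix. The matrix was remodelled by matrix metalloproteinase 13 (MMP13, 2 libraries), remodelled by MMP1 (2 libraries) or left native with no treatment (2 libraries). Both enzymes are secreted collagenases, and all 3 groups shared the cell line, grown in medium with serum, and the time. Only cells that had stuck to the matrix were lysed, so each group is the adherent fraction. Nothing in the labels ties the duplicates to separate cultures, so the spread behind each p-value may be technical in part or whole.

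Rab proteins are small GTPases that mark membrane compartments: in the GTP-bound state each recruits effectors that move, tether or fuse its vesicles. The Vps (vacuolar protein sorting) genes were named from yeast mutants and encode subunits of several unrelated machines. Among them are the retromer, which returns receptors from endosomes, the HOPS and CORVET tethers of endosomes and lysosomes, and part of the ESCRT complexes. ESCRT proteins, with the charged multivesicular body proteins encoded by Chmp genes as their filament, bud ubiquitin-tagged cargo into multivesicular bodies. Bloc1s genes encode subunits of BLOC-1, which sorts cargo from endosomes to lysosome-related organelles. In fibroblasts these routes carry integrins through rounds of uptake and recycling and deliver internalised collagen fragments to lysosomes.

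Levels are given in units, the reads of a gene after division by the size factor of its library. Libraries held between 161817 reads (MMP13 replicate 2) and 362122 reads (MMP13 replicate 1), and 1 read was worth 1.68 and 0.735 units in those libraries. Since a count of 0 allows a true value of up to 3 reads, the floor lay at 5.04 units in MMP13 replicate 2, for counting error only. The 8 fibroblast markers all had reads and together took 2.11% to 2.36% of each library, while tenocyte, leukocyte, endothelial and epithelial marker lists each took at most 0.0181%, with Epcam at 0. The ribosomal RNA precursor entry Rn45s took 0.83% ± 0.195 of reads on MMP13-treated matrix, 0.799% ± 0.194 on MMP1-treated matrix and 0.320% ± 0.0384 on native matrix (SD, n = 2 each). It moved with both treatments, and its part in the values that follow was not tested.

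Most sorting genes were expressed, at low to moderate levels. Of the 97 rows, 91 had at least 1 read and 70 had reads in all 6 libraries, against 6810 of all 17143 rows. Rab17, Rab27b, Rab39a, Rab3b, Rab3c and Rab40c had no read in any library. Another 24 rows had between 2 reads (Rab9b) and 25 reads (Rab4a) in total, and with the 6 rows at 0 they did not reach 5 units in 2 libraries and were not tested. The remaining 67 were tested: 30 Rab, 25 Vps, 9 Chmp and 3 Bloc1s genes. A gene could pass this filter through the group in which it was high.

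**Figure D1:**
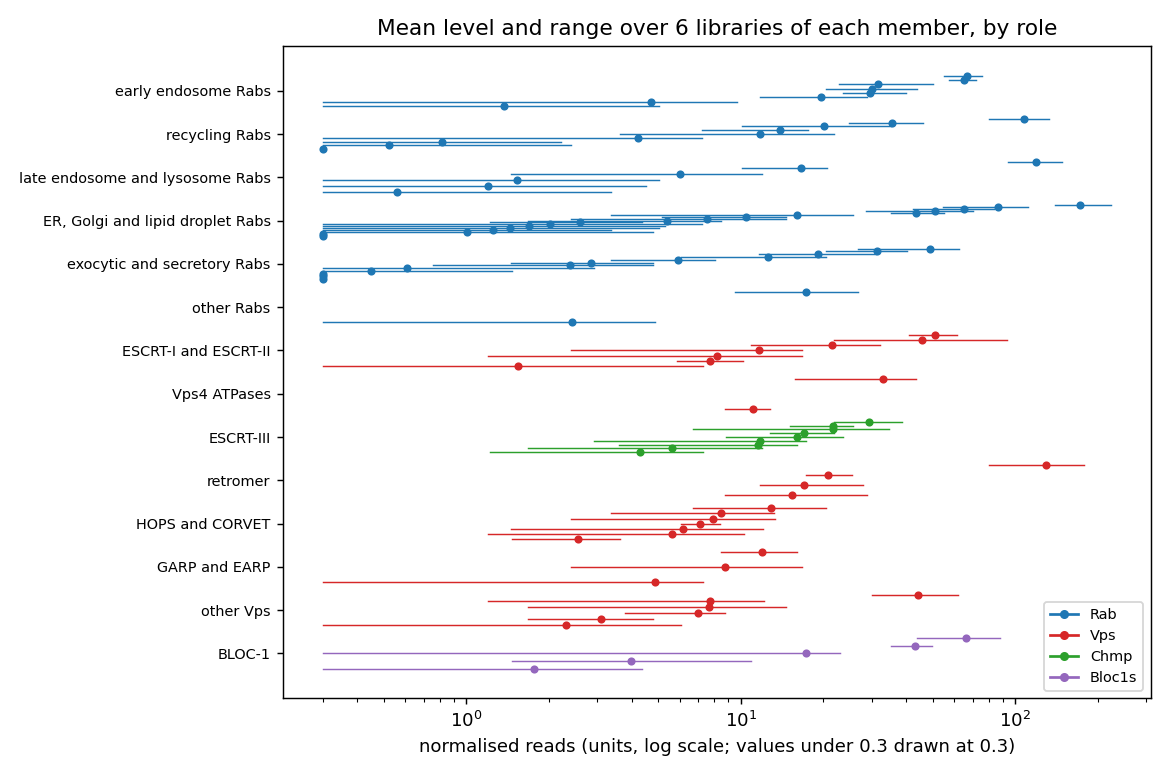
Each line spans the lowest to the highest of 6 libraries of 1 gene and the point is its mean, in units on a log scale, grouped by the role of the protein, with values under 0.3 drawn at 0.3. Rab34, Vps35, Rab7a and Rab11b lie at the right, with means of 172.5, 129.4, 118.7 and 108.1 units.

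Together the 97 genes took less of the library on treated than on native matrix. They made up 0.677% and 0.729% of reads on MMP13-treated matrix, 0.719% and 0.734% on MMP1-treated matrix, and 0.823% and 0.789% on native matrix. Neither treated group overlapped the native one. With 2 libraries a group this is common for single genes. Of all tested genes, 18.6% lay under both native libraries on MMP13-treated and 18.8% on MMP1-treated matrix. The summed level of the 54 Rab genes was 1080.3 and 1225.8 units on MMP13-treated matrix, 1175.6 and 1172.8 on MMP1-treated matrix, and 1287.3 and 1263.2 on native matrix. All 4 treated libraries lay under both native libraries for the Rab sum. The 5 Bloc1s genes summed to 129.4 and 105.8 units on MMP13-treated and 122.7 and 126.0 on MMP1-treated matrix. On native matrix they summed to 151.9 and 157.7 units, again without overlap. Bloc1s2 carried most of this: it averaged 63.7, 50.1 and 84.3 units on MMP13-treated, MMP1-treated and native matrix. Bloc1s1 averaged 43.1, 48.2 and 38.4 units, higher on both treated matrices, and Bloc1s4 had 0 reads in MMP13 replicate 2. The Vps sum was 468.5 and 503.8 units on MMP13-treated matrix, 498.0 and 533.0 on MMP1-treated matrix, and 613.9 and 516.9 on native matrix. Here MMP13-treated libraries lay under both native libraries, and MMP1 replicate 2 lay above native replicate 2. The Chmp sums overlapped between all groups, from 125.0 to 152.4 units. These sums are descriptions with no test. In bulk RNA, fewer cells holding these transcripts and fewer of these transcripts per cell cannot be told apart.

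**Figure D2:**
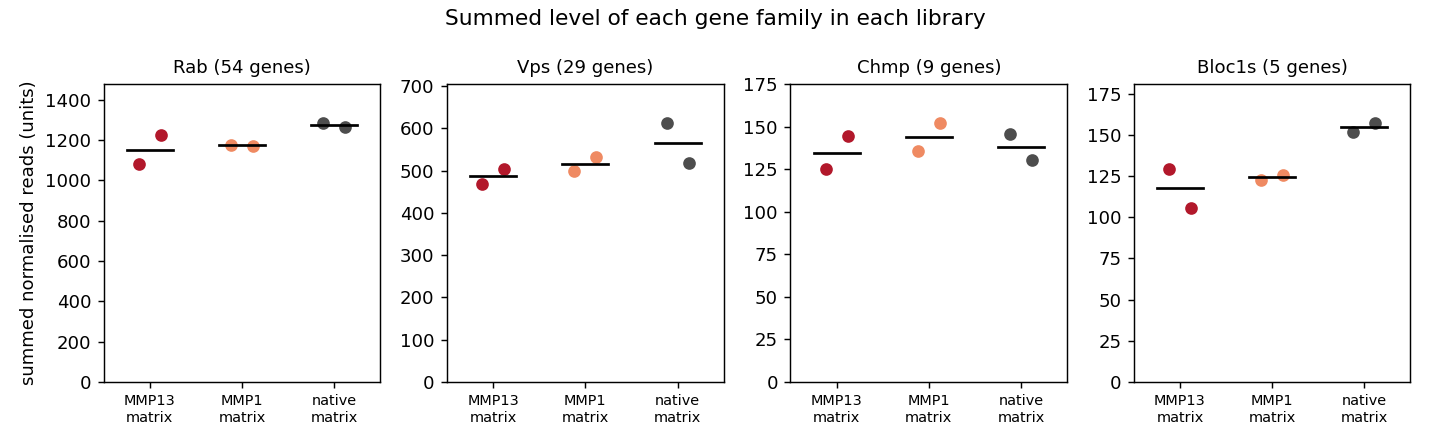
Points are the summed units of a family in 1 library and bars are group means of 2 libraries, for MMP13-treated, MMP1-treated and native matrix from left to right. Rab and Bloc1s sums of treated libraries, at most 1225.8 and 129.4 units, lie under the native ones, at least 1263.2 and 151.9 units.

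On MMP13-treated matrix 3 of the 67 tested genes were lower than on native matrix and 0 were higher. They were Rab18, a GTPase of the endoplasmic reticulum and lipid droplets, Vps25, a subunit of ESCRT-II, and Bloc1s4, a subunit of BLOC-1. Of all 7284 tested genes, 0.137% were called lower and 0.275% higher by the same rule, a limma adjusted p under 0.05, against 4.48% of these genes lower. The genes were gathered with these 3 calls known, so that share is no independent evidence. With TMM or quantile scaling, with no filter on low values, without the limma trend, or with only the 2 groups compared, 0 of these genes were called lower. By edgeR's quasi-likelihood test 1 of 49 was lower, Vps25, where 0.131% of all genes were, and 0 were higher, where 0.568% were. DESeq2 gave an adjusted p for 9 of these genes and called 0 lower and 0 higher, where 0.583% and 2.45% of its genes were. At an unadjusted p under 0.05, 6 of 67 were lower (the 3 called, Vps35, Rab6a and Chmp2a) and 2 higher (Vps4a and Rab14), where 4.15% and 3.9% of all tested genes were.

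Rab18 had 6.62 and 3.36 units on MMP13-treated matrix (9 and 2 reads), 14.6 and 21.6 on MMP1-treated matrix, and 24.3 and 25.7 on native matrix (20 and 34 reads). Both MMP13-treated libraries lay under all 4 others. Rab18 averaged 4.99 ± 2.31 units on MMP13-treated matrix and 24.98 ± 0.952 units on native matrix (SD, n = 2 each). It fell by 2.17 on the log2 scale (SE 0.58, limma adjusted p = 0.0499). Counting error alone gave a ratio of pooled reads between 0.106 and 0.433 around 0.224. The call rested on a narrow margin: edgeR gave an adjusted p of 0.0529, and with genes of identical reads counted once limma gave 0.0510. Left out in turn, MMP13 replicate 1 gave an adjusted p of 0.0332, MMP13 replicate 2 gave 0.561, MMP1 replicates 1 and 2 gave 0.0660 and 0.0835, and native replicates 1 and 2 gave 0.697 and 0.327. Its log2 fold stayed between -2.58 and -1.77 in those fits. RefSeq lists a pseudogene, Rab18-ps1, on the assembly GRCr8, and whether reads were shared with it was not tested.

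Vps25 had 34.6 and 21.8 units on MMP13-treated matrix, 23.4 and 44.4 on MMP1-treated matrix, and 93.6 and 55.8 on native matrix. All 4 treated libraries lay under both native libraries, which themselves differed by more units than the treated ones did. As a ratio, the MMP1-treated libraries differed more than the native ones. On MMP13-treated matrix Vps25 averaged 28.2 ± 9.01 units and on native matrix 74.7 ± 26.7 units (SD, n = 2 each), and it fell by 1.36 on the log2 scale (SE 0.36, limma adjusted p = 0.0451). Its edgeR adjusted p was 0.0253, and pooled reads gave a ratio of 0.437 with a counting interval of 0.318 to 0.592. The log2 fold was -1.00 without native replicate 1 (adjusted p = 0.999), -1.04 without MMP13 replicate 2 (0.735) and -1.73 without native replicate 2 (0.0594). Without MMP1 replicate 2 the adjusted p was 0.0648, and the call held without MMP13 replicate 1 (0.0371) or MMP1 replicate 1 (0.0491). On MMP1-treated matrix the log2 fold was -1.14 (SE 0.36, adjusted p = 0.175), with an average of 33.9 ± 14.9 units.

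Bloc1s4 had 17.6 and 0 units on MMP13-treated matrix (24 and 0 reads), 20.4 and 20.4 on MMP1-treated matrix, and 23.1 and 21.9 on native matrix. MMP13 replicate 1 lay somewhat under the 4 MMP1-treated and native libraries, and in MMP13 replicate 2, the shallowest of the series, 0 reads allowed up to 5.04 units. It averaged 8.83 ± 12.5 units on MMP13-treated matrix and 22.5 ± 0.857 units on native matrix (SD, n = 2 each). The fitted log2 fold was -2.44 (SE 0.61, limma adjusted p = 0.0249), but -0.33 without MMP13 replicate 2 (adjusted p = 0.996) and -4.55 without MMP13 replicate 1 (3.2e-06). Adjusted p was 0.0928 and 0.0835 without MMP1 replicates 1 and 2, and 0.864 and 0.359 without native replicates 1 and 2. By edgeR the log2 fold was -1.02 and the adjusted p 0.539. The SE was taken from the trend over genes of like level and not from these libraries. Its pooled spread between replicates was 81.7%, where counting gives 28.6%.

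**Figure D3:**
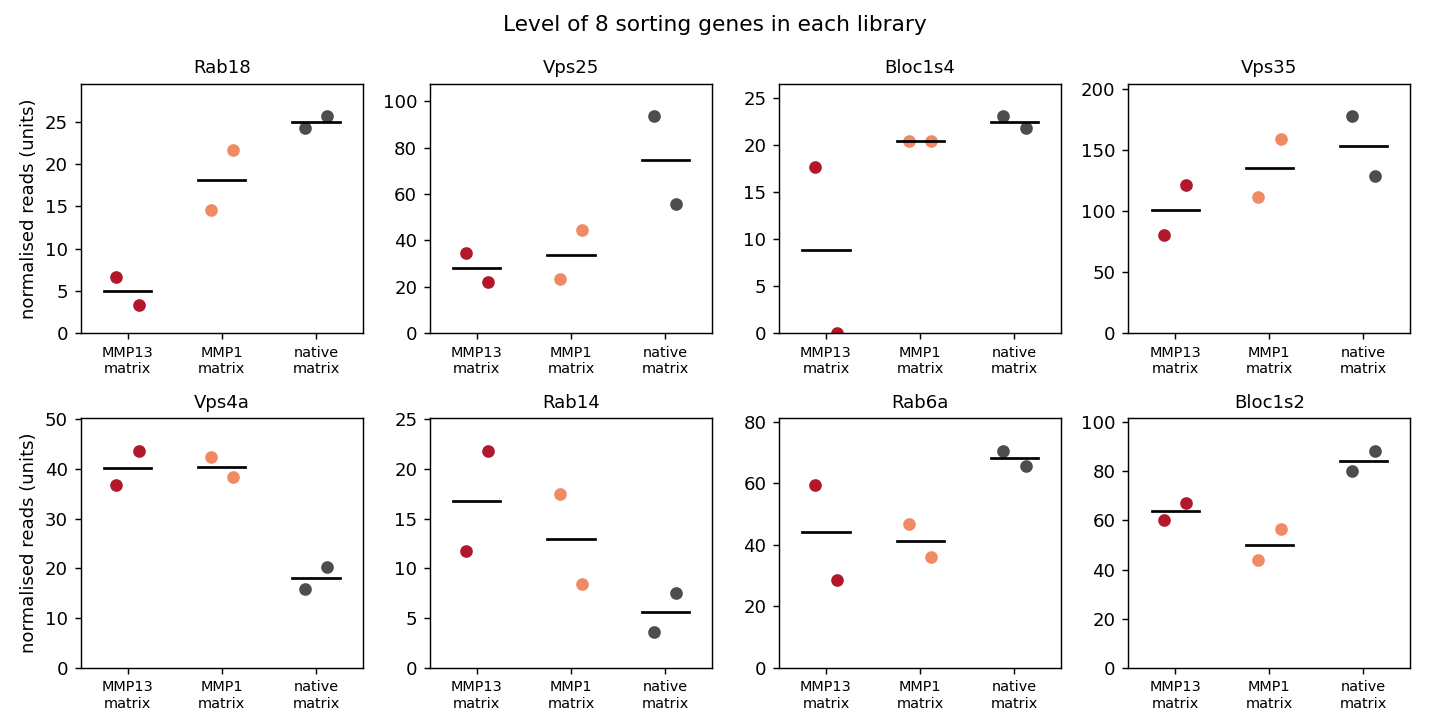
Points are units in each of 6 libraries and bars are group means of 2, for 8 genes chosen after their values were seen, with MMP13-treated, MMP1-treated and native matrix from left to right. Rab18 lies at 6.62 and 3.36 units on MMP13-treated matrix, Vps4a is above both native libraries on both treated matrices, and the Bloc1s4 libraries on MMP13-treated matrix lie at 17.6 and 0 units.

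The promoters of these 3 genes are shown because they were the called genes. Each runs from 250 bases before to 50 bases after the annotated start, 5' to 3' on the strand of the gene, as RefSeq gives it on GRCr8, whereas the reads had been counted on rn5. Rab18 is at chr17:59639014-59639313, Vps25 at chr10:86696137-86696436 and Bloc1s4 at chr14:78267485-78267784, all on the plus strand. Capitals mark matches on either strand to any of 4 motifs. They were the E-box at the core of the lysosomal gene motif, spelled CACGTG, the core of the antioxidant response element, spelled TGACNNNGC, the GC box, spelled GGGCGG, and the box spelled CCAAT.
Rab18: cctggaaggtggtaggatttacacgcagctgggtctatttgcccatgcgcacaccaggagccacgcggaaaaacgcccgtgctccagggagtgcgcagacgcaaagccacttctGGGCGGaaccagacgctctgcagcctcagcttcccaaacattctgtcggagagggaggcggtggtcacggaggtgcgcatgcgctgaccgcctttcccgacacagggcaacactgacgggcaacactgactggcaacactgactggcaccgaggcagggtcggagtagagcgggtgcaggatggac
Vps25: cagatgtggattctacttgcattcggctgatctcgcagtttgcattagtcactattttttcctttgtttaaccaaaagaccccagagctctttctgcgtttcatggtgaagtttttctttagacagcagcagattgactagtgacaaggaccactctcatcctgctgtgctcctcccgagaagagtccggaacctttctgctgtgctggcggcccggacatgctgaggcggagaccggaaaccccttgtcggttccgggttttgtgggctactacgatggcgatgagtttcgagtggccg
Bloc1s4: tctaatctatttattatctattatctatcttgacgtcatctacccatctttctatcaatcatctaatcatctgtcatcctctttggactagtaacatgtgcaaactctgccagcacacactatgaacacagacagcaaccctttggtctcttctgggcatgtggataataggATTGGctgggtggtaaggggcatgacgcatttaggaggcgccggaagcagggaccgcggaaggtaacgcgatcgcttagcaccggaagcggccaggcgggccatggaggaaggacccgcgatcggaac
The Rab18 window held 1 GC box, the Bloc1s4 window 1 CCAAT box and the Vps25 window none of the 4 motifs, so the 3 shared no match. Promoters were listed for 77 of the 97 genes. Of these, 10 (13.0%) held CACGTG, against 6.65% of all 27457 listed promoters and 10.0% of those of tested genes. The 10 were Vps16, Bloc1s1, Rab21, Vps11, Rab5a, Rab31, Vps37b, Vps33a, Rab20 and Vps26a. TGACNNNGC was in 12 (15.6%), against 12.2% of all and 15.0% of tested genes' promoters. GGGCGG was in 68.8%, against 34.9% and 65.3%, and CCAAT in 35.1%, against 37.7% and 38.5%. Matches of different motifs could overlap, and none of these shares was tested.

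On MMP1-treated matrix 0 of the 67 genes were called lower and 0 higher by limma, where 0.0137% and 0.137% of all tested genes were. EdgeR called 0 of 49 (0.0219% and 0.197% over all genes) and DESeq2 0 of 91 (0% and 0.00679%). At an unadjusted p under 0.05, 5 were lower (Vps25, Bloc1s2, Rab6a, Chmp1b and Rab5a) and 1 was higher (Vps4a), where 4.26% and 3.98% of all tested genes were. Between MMP13-treated and MMP1-treated matrix 0 were called in either direction by all 3 tools. Over all genes limma called 0% lower and 0.0412% higher, edgeR 0% and 0.0437% and DESeq2 0% and 0.00679%. At an unadjusted p under 0.05, 4 were lower and 1 was higher, where 2.64% and 2.58% of all tested genes were. Native libraries are shared by both comparisons with native, so values on the 2 treated matrices are given side by side and not as support for each other.

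Somewhat more of the sorting genes lay under native matrix than above it, and this lean was seen mostly in Rab genes. It was not tested, and the genes were gathered with the 3 calls known. Against native matrix, the median log2 fold of the 67 tested genes was -0.13 on MMP13-treated and -0.09 on MMP1-treated matrix, and that of all 7284 genes was 0.01 and 0.02. Of the 67, 38 lay under 0 on each treated matrix, where 3602 and 3562 of all 7284 tested genes did. Among 30 Rab genes 19 lay under 0 on MMP13-treated and 20 on MMP1-treated matrix. Among 25 Vps genes this was 13 and 13, and among 9 Chmp genes 4 and 3. By Rab group, 7 and 8 of 9 endoplasmic reticulum, Golgi and lipid droplet genes lay under 0, and 1 and 2 of 5 recycling genes. For early endosome genes this was 5 and 5 of 7, and for late endosome and lysosome genes 3 and 2 of 3. For exocytic and secretory genes it was 2 and 2 of 5. These groups are small, many of the folds were smaller than their SE, and no difference between groups was tested. On MMP13-treated matrix the 2 libraries lay under both native ones for 20 of the 67 (29.9%) and above both for 7 (10.4%), where 18.6% and 18.9% of all tested genes did. On MMP1-treated matrix this was 15 (22.4%) under and 8 (11.9%) above, where 18.8% and 19.6% of all tested genes did.

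**Figure D4:**
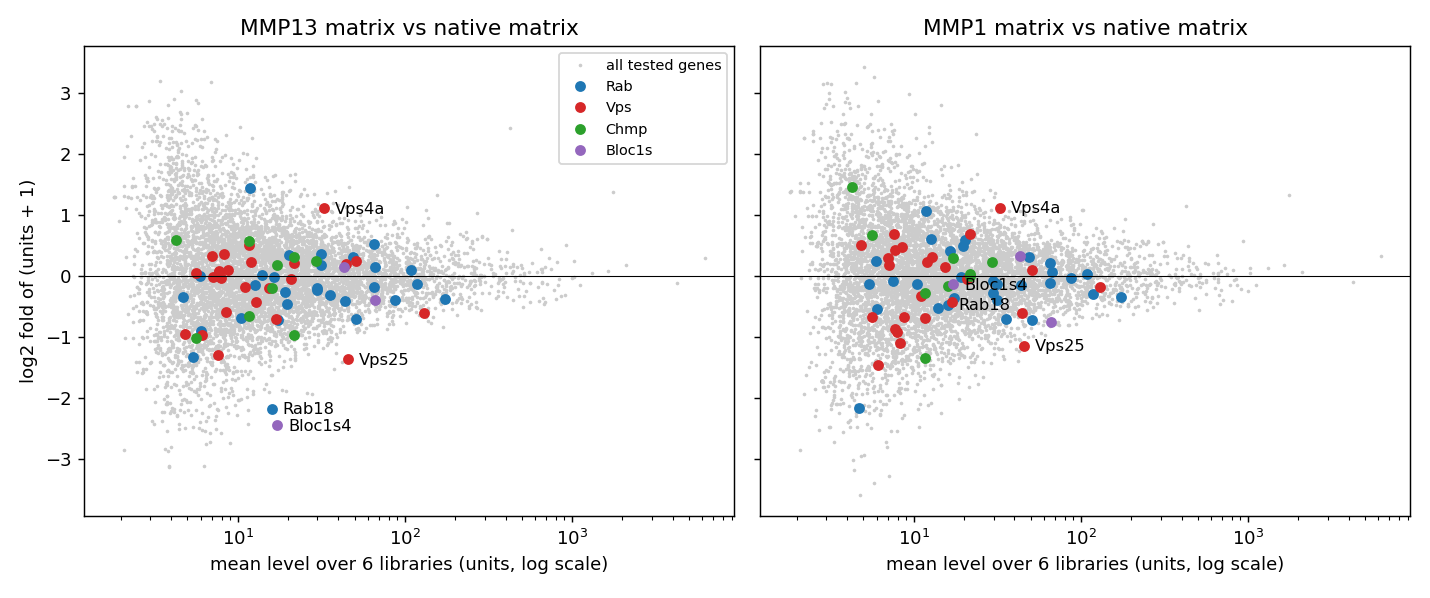
Each point is a tested gene, with its mean level on a log axis against its log2 fold on MMP13-treated (left) or MMP1-treated matrix (right) relative to native, and sorting genes are coloured by family. Rab18, Vps25 and Bloc1s4 lie at log2 folds of -2.17, -1.36 and -2.44 in the left panel, and Vps4a at 1.12 on the left and 1.13 on the right.

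Early endosome Rab genes showed no call, with 5 of 7 tested under 0 on each treated matrix. Rab5b, an isoform of the GTPase of early endosome fusion, had 64.7 and 75.6 units on MMP13-treated, 58.4 and 74.4 on MMP1-treated and 71.7 and 55.1 on native matrix. The isoform Rab5c had 27.9 and 28.5 units, 35.05 and 20.4 units, and 43.8 and 24.1 units on those matrices. The groups overlapped for both isoforms. Rab5a was near the floor, with 5.88 and 5.04 units on MMP13-treated, 0 and 2.40 on MMP1-treated and 9.72 and 5.28 on native matrix, or at most 8 reads. Rab31, a relative of Rab5 that also acts at the trans-Golgi, had 57.4 and 65.5 units on MMP13-treated, 64.3 and 64.8 on MMP1-treated and 71.7 and 67.2 on native matrix. Its treated libraries lay under the native ones. Rab20 had 25.7 and 50.4 units on MMP13-treated, 24.8 and 22.8 on MMP1-treated and 41.3 and 24.1 on native matrix. Each treated group overlapped the native one, while the MMP13-treated libraries lay above the MMP1-treated ones. Rab21, which binds integrin tails during their uptake, had 30.2 and 23.5 units on MMP13-treated, 24.8 and 34.8 on MMP1-treated and 40.1 and 24.1 on native matrix. Rab24, known from autophagy, had 11.8 and 15.1 units on MMP13-treated, 24.8 and 28.8 on MMP1-treated and 19.4 and 18.1 on native matrix. The groups of Rab24 did not overlap, with MMP13-treated libraries lowest and MMP1-treated ones highest, and no comparison passed the test.

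The recycling Rab genes were led by Rab11b, with 98.5 and 124 units on MMP13-treated, 111 and 102 on MMP1-treated and 80.2 and 133 on native matrix. Native libraries enclosed all the treated ones. Rab11a, which with Rab11b serves the recycling endosome that returns integrins, had 37.5 and 33.6 units on MMP13-treated, 24.8 and 28.8 on MMP1-treated and 42.5 and 46.0 on native matrix, without overlap and without a call. Rab14, which acts between Golgi and endosomes, was high on treated matrix instead: 11.8 and 21.8 units on MMP13-treated, 17.5 and 8.40 on MMP1-treated and 3.65 and 7.55 on native matrix. Its log2 fold was 1.44 on MMP13-treated matrix (SE 0.65, adjusted p = 0.515) and 1.07 on MMP1-treated matrix (SE 0.65, adjusted p = 0.706). Native reads of Rab14 were 3 and 10, so the lower native value stands at the floor. Rab4b ranged from 10.1 to 35.3 units, both extremes on MMP13-treated matrix, and Rab35 from 7.20 to 17.6 units.

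Of the late endosomal genes, Rab7a, the GTPase that directs fusion with lysosomes, had 94.1 and 148 units on MMP13-treated, 99.3 and 113 on MMP1-treated and 130 and 128 on native matrix. MMP13-treated libraries spread across the native values and MMP1-treated ones lay under them. Rab9a, which acts in transport from late endosomes to the trans-Golgi, had 20.6 and 10.1 units on MMP13-treated, 19.0 and 20.4 on MMP1-treated and 13.4 and 15.8 on native matrix. Its MMP1-treated libraries lay above the native ones and the MMP13-treated ones on both sides of them. Rab32, of lysosome-related organelles and mitochondria, had between 1 and 14 reads a library.

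The Rab genes of endoplasmic reticulum, Golgi and lipid droplets, Rab18 among them, included Rab34, the most abundant of the 97. Their 17 rows summed to 386.1 and 446.7 units on MMP13-treated, 499.4 and 421.3 on MMP1-treated and 551.9 and 504.1 on native matrix, and 7 of 9 tested lay under 0 on MMP13-treated and 8 of 9 on MMP1-treated matrix. Both treated groups lay under the native sums. Rab34, which acts in Golgi and lysosome positioning and in cilium formation, had 140 and 170 units on MMP13-treated, 181.1 and 139 on MMP1-treated and 224 and 181.1 on native matrix. MMP1 replicate 1 differed from native replicate 2 by less than 1 unit. Rab6a, of retrograde Golgi traffic, had 59.6 and 28.5 units on MMP13-treated, 46.7 and 36.0 on MMP1-treated and 70.5 and 65.7 on native matrix. Its treated libraries all lay under the native ones, with log2 folds of -0.71 (SE 0.33, adjusted p = 0.547) and -0.72 (SE 0.33, adjusted p = 0.528). On GRCr8 its span overlaps Mrpl48 and Plekhb1, and whether reads were counted by strand is unknown.

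Rab1a and Rab2a, both of traffic between endoplasmic reticulum and Golgi, went different ways without a call. Rab1a had 54.4 and 92.4 units on MMP13-treated, 101 and 82.8 on MMP1-treated and 112 and 77.7 on native matrix, with overlap. Rab2a had 71.3 and 84.0 units on MMP13-treated, 59.9 and 64.8 on MMP1-treated and 42.5 and 67.2 on native matrix. Its log2 fold on MMP13-treated matrix was 0.53 (SE 0.30, adjusted p = 0.669). Without native replicate 1 this fold was smaller, at 0.20. RefSeq lists 6 Rab1a pseudogenes on GRCr8, and the split of reads among them was not tested.

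Each treated group overlapped the native one for the exocytic Rab genes named here with reads in every library. Rab10, which brings vesicles to the plasma membrane, had 53.7 and 48.7 units on MMP13-treated, 46.7 and 56.4 on MMP1-treated and 26.7 and 62.6 on native matrix, so the native libraries enclosed the treated ones. Rab13 ranged from 20.4 to 40.3 units and Rab8a from 11.7 to 31.2 units. Rab8b, a paralog of Rab8a, ranged from 6.08 to 20.4 units. Between the treated matrices the MMP13 libraries lay above the MMP1 ones for Rab13 (34.6 and 40.3 units, against 20.4 and 33.6) and under them for Rab8b (10.3 and 8.40 units, against 13.1 and 20.4). The secretory genes Rab3b, Rab3c and Rab27b were at 0 reads, Rab3a had 17 reads and Rab27a 12 reads over all 6 libraries, and Rab3d had 3.

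Vps25 was the 1 ESCRT gene called, and the other 5 tested genes of ESCRT-I and ESCRT-II lay above 0 on MMP13-treated matrix. Vps28, of ESCRT-I, had 57.4 and 53.7 units on MMP13-treated, 40.9 and 61.2 on MMP1-treated and 42.5 and 51.3 on native matrix. MMP13-treated libraries lay above both native ones and MMP1-treated ones on both sides of them. Vps36, the partner of Vps25 in ESCRT-II, had 24.3 and 15.1 units on MMP13-treated, 32.1 and 22.8 on MMP1-treated and 10.9 and 24.1 on native matrix. It overlapped native in both comparisons, and its log2 fold on MMP1-treated matrix was 0.70 (SE 0.48, adjusted p = 0.741). Vps37b and Vps37a, alternative ESCRT-I subunits, had log2 folds of 1.20 (SE 0.65) and 1.45 (SE 0.80) on MMP13-treated relative to MMP1-treated matrix, both with an adjusted p of 0.990. MMP1 replicate 2 held 2 reads of Vps37b and 1 of Vps37a, and without that library the log2 folds were 0.10 and 0.49.

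Among the 9 ESCRT-III genes, 5 lay above 0 on MMP13-treated and 6 on MMP1-treated matrix. Chmp5, a late-acting subunit, had 24.3 and 38.6 units on MMP13-treated, 32.1 and 28.8 on MMP1-treated and 21.9 and 30.2 on native matrix. Chmp3 ranged from 15.1 to 25.7 units and Chmp7, which also seals the nuclear envelope, from 12.8 to 21.9 units, and each treated group overlapped the native one for both. For Chmp3 the MMP13-treated libraries (25.7 and 23.5 units) lay above the MMP1-treated ones (19.0 and 21.6 units). Chmp2a had 21.3 and 6.72 units on MMP13-treated, 17.5 and 34.8 on MMP1-treated and 26.7 and 22.6 on native matrix. Its low value, in MMP13 replicate 2, was 4 reads. The MMP13-treated libraries lay under both native ones, with a log2 fold of -0.96 (SE 0.49, adjusted p = 0.614). By edgeR this log2 fold was -0.64.

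Vps4a, an ATPase that takes ESCRT-III filaments apart, was the gene furthest above native in both comparisons by unadjusted p. It had 36.8 and 43.7 units on MMP13-treated, 42.4 and 38.4 on MMP1-treated and 15.8 and 20.4 on native matrix. All 4 treated libraries lay well above both native libraries, and replicates were close. Its log2 fold was 1.12 on MMP13-treated (SE 0.40, 95% interval 0.33 to 1.90, adjusted p = 0.298) and 1.13 on MMP1-treated matrix (SE 0.40, 0.34 to 1.91, adjusted p = 0.276), so it did not pass over all genes. EdgeR gave adjusted p of 0.238 and 0.242. Without any 1 library the log2 fold was between 0.94 and 1.29 on MMP13-treated and between 0.95 and 1.30 on MMP1-treated matrix. The paralog Vps4b had 11.8 and 10.1 units on MMP13-treated, 8.76 and 10.8 on MMP1-treated and 12.2 and 12.8 on native matrix, so its treated libraries lay slightly under the native ones.

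Retromer genes lay under 0 in 4 of 4 cases on MMP13-treated and 3 of 4 on MMP1-treated matrix, without a call. Of all 7284 tested genes 3602 and 3562 did. On MMP13-treated matrix the log2 folds of Vps26a (-0.05, SE 0.48) and Vps26b (-0.19, SE 0.56) were smaller than their SE. Vps35, the scaffold of the complex, had 80.2 and 121 units on MMP13-treated, 111 and 158 on MMP1-treated and 177 and 128 on native matrix. On MMP13-treated matrix its libraries lay under both native ones (log2 fold -0.61, SE 0.23, adjusted p = 0.325), and on MMP1-treated matrix they overlapped them. Without native replicate 1 the log2 fold on MMP13-treated matrix was -0.38 and without MMP13 replicate 1 it was -0.32. The partner subunits stood lower in reads: Vps26a ranged from 17.4 to 25.5 units, Vps26b from 8.76 to 28.8 and Vps29 from 11.8 to 28.0. The reads come from 3' ends and were not divided by transcript length.

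The HOPS and CORVET genes, which tether endosomes and lysosomes, were low, and the 6 tested had means between 5.64 units (Vps33a) and 12.9 units (Vps41). Of these, 5 lay under 0 on MMP13-treated and 3 on MMP1-treated matrix. Vps41 had 11.8 and 6.72 units on MMP13-treated, 20.4 and 12 on MMP1-treated and 18.2 and 8.30 on native matrix. Of the GARP genes, which tether vesicles from endosomes at the trans-Golgi, Vps53 ranged from 8.51 to 16.1 units, Vps52 from 2.40 to 16.8 and Vps54 from 0 to 7.30. For these 4 genes each treated group overlapped the native one.

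Vps72 has a Vps symbol but encodes a subunit of chromatin-remodelling complexes. It had 54.4 and 53.7 units on MMP13-treated, 30.7 and 30.01 on MMP1-treated and 35.3 and 61.9 on native matrix. On MMP13-treated relative to MMP1-treated matrix its log2 fold was 0.81 (SE 0.35, adjusted p = 0.823). Of the native libraries, replicate 1 fell in the gap between those groups and replicate 2 above both. Vps13b, a lipid transfer protein of the Golgi, had 2.94 and 1.68 units on MMP13-treated, 11.7 and 12 on MMP1-treated and 14.6 and 3.02 on native matrix. Its log2 fold on MMP13-treated relative to MMP1-treated matrix was -1.98 (SE 0.85, adjusted p = 0.823), from 4 and 1 reads against 8 and 10. In that comparison Rab18 had a log2 fold of -1.70 (SE 0.58, adjusted p = 0.758) and Vps25 one of -0.22 (SE 0.36, adjusted p = 1.00), whose sign turned without MMP13 replicate 2 (0.10) or MMP1 replicate 2 (0.23). Bloc1s4 had one of -2.31 (SE 0.61, adjusted p = 0.174), which was -0.20 without MMP13 replicate 2 and -4.42 (adjusted p = 3.4e-05) without MMP13 replicate 1.

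Of the BLOC-1 genes other than Bloc1s4 none was called. Bloc1s2 had 60.3 and 67.2 units on MMP13-treated, 43.8 and 56.4 on MMP1-treated and 80.2 and 88.3 on native matrix. All 4 treated libraries lay under both native ones, and on MMP1-treated matrix the log2 fold was -0.75 (SE 0.29, adjusted p = 0.376). Bloc1s1 had 49.3 and 36.9 units on MMP13-treated, 49.7 and 46.8 on MMP1-treated and 35.3 and 41.5 on native matrix. Bloc1s6 and Bloc1s5 had 21 and 10 reads over all libraries and were not tested. On MMP1-treated matrix Bloc1s4 had a log2 fold of -0.13 (SE 0.61, adjusted p = 0.980) and Rab18 one of -0.47 (SE 0.58, adjusted p = 0.879).

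Read noise was large for many of these genes. Of the 91 with reads, 29 averaged at most 5 reads per library, 15 between 5 and 10, 21 between 10 and 20, 16 between 20 and 50 and 10 above 50. In those classes counting alone gives a median coefficient of variation (CV) of 70.8%, 40.9%, 28.6%, 19.7% and 12.5%. The median CV measured between replicates was 84.7%, 58.1%, 40.3%, 24.8% and 19.3%. Replicates thus scattered beyond counting in each class, as they did over all genes (98.7%, 51.5%, 36.5%, 25.2% and 14.2%). In the lowest class 20 of the 29 had reads in every group and so a CV. Rab18 averaged 15.5 reads, with a CV between replicates of 31.1% where counting gives 34.4%. Vps25 averaged 44 reads, with 37.5% measured and 17.8% from counting, and Vps4a 29.5 reads, with 13.1% measured and 19.8% from counting.

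**Figure D5:**
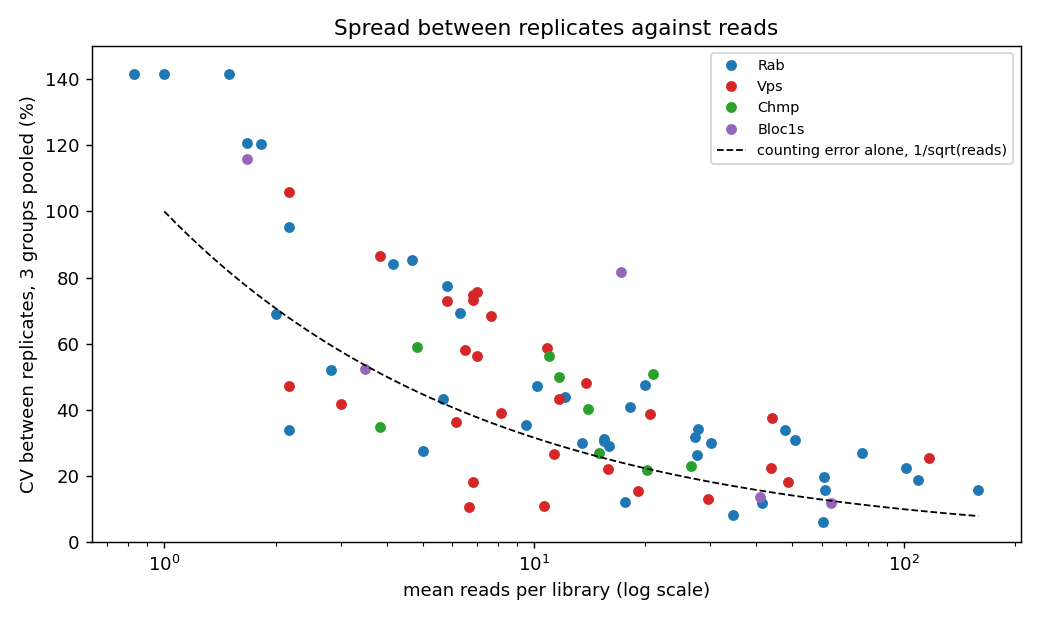
Each point is a sorting gene with reads in every group. Its mean reads per library, on a log axis, are set against the CV between replicates pooled over 3 groups. The dashed line is counting error alone at the mean reads per library, 25.4% for Rab18 and 24.1% for Bloc1s4. The counting values in the text, 34.4% and 28.6%, use each group's level and each library's depth and are higher. Rab18 at 15.5 reads has a CV of 31.1% and Bloc1s4 at 17.2 reads one of 81.7%, the highest among genes above 10 reads.

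Other genes of the same routes, in 6 lists, had 0 calls by limma, edgeR or DESeq2 in either comparison with native. Limma tested 99 of them and edgeR 79. DESeq2 gave an adjusted p for 21 on MMP13-treated and 99 on MMP1-treated matrix. Of all tested genes limma called 0.275% higher and 0.137% lower on MMP13-treated matrix, and 0.137% and 0.0137% on MMP1-treated matrix. At such shares, 0 calls among 99 says little about these routes. The lists held 24 tested Rab regulators, 15 other ESCRT genes, 14 retromer partners, 9 BLOC and HPS partners, 20 lysosomal and cargo genes and 17 clathrin and adaptor genes. On MMP13-treated matrix the median log2 fold was -0.10, -0.10, -0.34, 0.27, 0.09 and -0.20 in those lists, where it was 0.01 over all tested genes. At an unadjusted p under 0.05 in that comparison, 3 Rab regulators, 1 retromer partner, 3 lysosomal and cargo genes and 1 clathrin and adaptor gene were lower, and 1 ESCRT and 1 lysosomal gene were higher. These were 8 lower and 2 higher of 99 tested, where 4.15% and 3.9% of all tested genes were. On MMP1-treated matrix 3 of the 99 were lower and 4 higher at that p, close to the 4.26% and 3.98% of all tested genes. The list called retromer partners held sorting nexins and WASH subunits and was not limited to genes that act with retromer. Of its 14 tested genes, 11 lay under 0 on each treated matrix, where 3602 and 3562 of all 7284 tested genes did.

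The GDP dissociation inhibitor Gdi2, which extracts Rab proteins from membranes, had 105 and 128 units on MMP13-treated and 177 and 158 on native matrix (log2 fold -0.53, SE 0.22, adjusted p = 0.444). Tbc1d10a, a Rab GTPase-activating protein, had 6.62 and 0 units on MMP13-treated and 12.2 and 12.8 on native matrix (log2 fold -2.29, adjusted p = 0.362), and it was -0.82 without MMP13 replicate 2. Hgs, the ESCRT-0 subunit that first binds ubiquitinated cargo, had 53.0 and 57.1 units on MMP13-treated and 30.4 and 37.0 on native matrix (log2 fold 0.70, adjusted p = 0.591). Its libraries did not overlap. Usp8, a deubiquitinase of endosomes, had a log2 fold of 0.78 (adjusted p = 0.893).

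The WASH subunit gene Fam21c had 15.4 and 11.8 units on MMP13-treated and 34.0 and 23.4 on native matrix (log2 fold -1.01, adjusted p = 0.591), and Snx33 had a log2 fold of -0.76 (adjusted p = 0.698). The cathepsin gene Ctsl, a lysosomal protease, was abundant, with 561.1 and 534.0 units on MMP13-treated and 733.0 and 715.4 on native matrix. Its log2 fold was -0.40 (SE 0.12, adjusted p = 0.142), and the groups did not overlap. Lrp1, an endocytic receptor of proteases and matrix proteins, had a log2 fold of -0.44 (adjusted p = 0.521). Ap2m1, of the clathrin adaptor AP-2, had 204.4 and 201.5 units on MMP13-treated and 301.5 and 270.9 on native matrix (log2 fold -0.49, adjusted p = 0.298), while Cltc, the clathrin heavy chain, had a log2 fold of -0.30 (adjusted p = 0.731). Ap3s1, of the AP-3 adaptor, had a log2 fold of 1.00 (adjusted p = 0.654) and Hps6, of BLOC-2, one of -0.99 (adjusted p = 0.756).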

How the data were processed

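Rat-1 RNA was read by 3' end sequencing with a UMI of 8 nucleotides, per the labels' protocols. The submitters' processing notes name bcl2fastq, TopHat, DESeq and the rat build rn5. The sources used here do not give the gene counter, annotation release, strand use or UMI collapsing. The authors deposited a signal scaled by size factors: in each library 100% of the values above 0 were whole multiples of 1 step within 0.01 reads, which gave back whole reads. Depth ran from 161817 to 362122 reads a library.

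Genes with at least 5 units in at least 2 libraries (7284) were put on the log2(value + 1) scale and tested by limma 3.58.1 (R 4.3.3, eBayes with trend, 3 groups, all 6 libraries, no replicate block), with Benjamini-Hochberg adjustment over all of them. A call is an adjusted p under 0.05. The log2(value + 1) scale makes folds of low genes smaller where every library has reads. Where a library has no read it can make them larger. Bloc1s4 on MMP13-treated relative to native matrix had -2.44 on this scale and -1.02 by edgeR. The prior degrees of freedom were infinite, so each SE came from the trend over genes of like level and not from the gene's own libraries. Recovered reads were tested with edgeR 4.0.16 (quasi-likelihood, TMM, 4574 genes) and DESeq2 1.42.0 as alternatives, among 19 in all. Counting intervals are exact binomial at 95% and cover counting error only. The scripts were run on simulated data with planted changes, and how many of those were recovered is not reported here.

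The genes, lists and tests were chosen with earlier results of these data known. Folds are named for called genes and for the 3 smallest p per comparison and direction, levels for up to 4 genes of highest mean per role group, and 2 genes by smallest p per other list. Vps35, Rab6a and Chmp2a on MMP13-treated matrix, and further genes given by level, were named after their values were seen. RefSeq tables of GRCr8 gave promoters, pseudogene names and gene spans. All 97 symbols matched.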

Additional observations from a re-analysis of the deposited data

How the results depend on the processing

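Of the 3 genes called lower on MMP13-treated relative to native matrix, 1 was called with a pseudocount of 0.5 (Bloc1s4), 1 with a pseudocount of 5 (Vps25), 1 with the replicate block (Bloc1s4) and 1 by edgeR (Vps25). The count was 0 with no filter, with TMM factors from all genes, with quantile scaling, with only the 2 groups compared, without the limma trend and by DESeq2. It was 2 with robust eBayes and with identical reads counted once, and 3 with a minimum of 10 units. With 1 library left out it ranged from 0 to 3. Between MMP13-treated and MMP1-treated matrix the count of lower genes ranged from 0 to 1 with 1 library left out, where all libraries gave 0. The counts of higher genes, and of lower genes on MMP1-treated matrix, were 0 under each alternative run. Among named folds, with Chmp2a not included, 1 reversed, that of Vps25 on MMP13-treated relative to MMP1-treated matrix. It ran from -0.67 to 0.23 with 1 library left out. Over all tested genes the calls on MMP13-treated matrix, 20 higher and 10 lower, ran from 0 to 30 and from 0 to 24, and were 7 and 1 with TMM factors. The labels do not say whether the replicate numbers mark pairs. Deviations of same-numbered libraries correlated across genes at -0.0724 for MMP13 and native, 0.0059 for MMP1 and native and -0.0449 for MMP13 and MMP1. These values cannot exclude pairing, since genes are not independent replicates and counting noise is large in most of them. Most genes here had few reads: 29, 15 and 21 of the 91 with reads averaged at most 5, from 5 to 10 and from 10 to 20 a library. Replicates scattered beyond counting in each of these classes, so counting noise was not the whole spread.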
